A study of Rattus norvegicus with 16 samples.

Results

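Triglyceride is built on a backbone of glycerol-3-phosphate, to which fatty acids are added in steps. The 9 genes described here supply that backbone, draw on it or carry out those steps: Gpd1, Gpd2, Aqp7, Pck1, Gpam, Agpat2, Lpin1, Dgat1 and Dgat2. They were chosen by name, with earlier results of these data known. Every probe set whose annotation gave one of them as its only gene was taken, 11 probe sets in all. The whole array held 10411 genes named by a probe set of 1 gene. RNA came from isolated rat pancreatic islets, the clusters of endocrine cells that hold the insulin-producing beta cells.

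All islets had received an adenovirus at 50 viral particles per cell for 32 h, so no group was free of virus. The first group carried the PPARγ virus and then spent 16 h with 200 nM GW347845, an agonist of PPARγ (peroxisome proliferator-activated receptor gamma, a nuclear receptor), with 4 arrays. The second carried the PPARγ virus and spent 16 h in 0.004% DMSO, the vehicle, with 4 arrays. The third carried an empty (null) virus and received the compound, with 3 arrays, and the fourth carried the null virus and received vehicle, with 3 arrays. Strain, age, the species of the viral PPARγ and the origin of the replicates (separate islet preparations or not) are not stated, so p-values measure the spread between these arrays, which may be technical.

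In cells that store fat, the cytosolic glycerol-3-phosphate dehydrogenase Gpd1 makes glycerol-3-phosphate from the glycolytic intermediate dihydroxyacetone phosphate. Pck1 can feed the same intermediate from pyruvate in the route called glyceroneogenesis, and the channel Aqp7 lets glycerol cross the cell membrane. Gpam adds the first fatty acid, Agpat2 the second, Lpin1 removes the phosphate, and Dgat1 or Dgat2 adds the last fatty acid. Gpd2, the mitochondrial dehydrogenase, runs the other way: it oxidises glycerol-3-phosphate, passes the electrons to the respiratory chain, and is known for its high activity in beta cells. Several of these genes are known targets of PPARγ in adipocytes.

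The viral gene was read in the groups that should carry it. Pparg intensity was 4593.4 to 5966.4 with PPARγ virus and compound and 4939.2 to 6199.1 with PPARγ virus and vehicle. It was 25.6 to 51.4 with null virus and compound and 27.7 to 39.1 with null virus and vehicle. The beta cell hormone gene Ins1 lay between 4626.9 and 7093.1 in all 14 arrays. The beta cell marker Pdx1 read 208.3 to 272.2 with PPARγ virus and compound and 254.0 to 280.9 with PPARγ virus and vehicle. It read 276.2 to 434.4 with null virus and compound and 312.5 to 435.2 with null virus and vehicle. From the last group to the first its log2 change was -0.67 (limma adjusted p = 0.0904). The other tested markers, Ins2, Iapp, Slc2a2 and Nkx6-1, changed by -0.23 to -0.03, and none passed. The arrays of replicates 2 and 4 of the PPARγ virus stood apart in 3 hormone genes of other islet cells, Gcg, Ppy and Pyy, all below the null virus arrays. The glucagon gene Gcg read 180.8 and 1221.3 in these replicates with compound and 420.8 and 1231.3 with vehicle, against 3606.2 and 3910.6 and against 3788.0 and 4191.7 in replicates 1 and 3, and 2621.2 to 3423.3 in the null virus arrays. The somatostatin gene Sst differed in another way: PPARγ virus replicate 3 read 1279.2 with compound and 1253.7 with vehicle, against 172.1 to 425.3 in the null virus arrays. Replicate 1 of the PPARγ virus read 512.2 with compound, also above the null virus arrays, and 293.8 with vehicle, within their range. In bulk tissue, fewer cells of a type and less RNA per cell cannot be told apart. The replicate 2 columns of the null virus, vehicle and compound, held 1 and the same array and were left out.

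With PPARγ and its agonist, the rises that passed the test were those of Gpd1, which makes the backbone, and Dgat2, which like Dgat1 adds the last fatty acid. Gpd1 was 7.35-fold and Dgat2 3.2-fold higher with PPARγ virus and compound than with null virus and vehicle. Of the genes between them, Agpat2 and Lpin1 did not pass, and Gpam was too dim to be tested. Gpd2, Aqp7, Pck1 and Dgat1 did not pass either, which does not show that any of these genes was unchanged. Of 9 probe sets tested, which cover 8 genes, 2 rose and 0 fell in this combined contrast (limma, Benjamini-Hochberg adjusted p under 0.05). Over all 10078 probe sets tested, 0.605% rose and 0.0595% fell by the same rule.

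**Figure D1:**
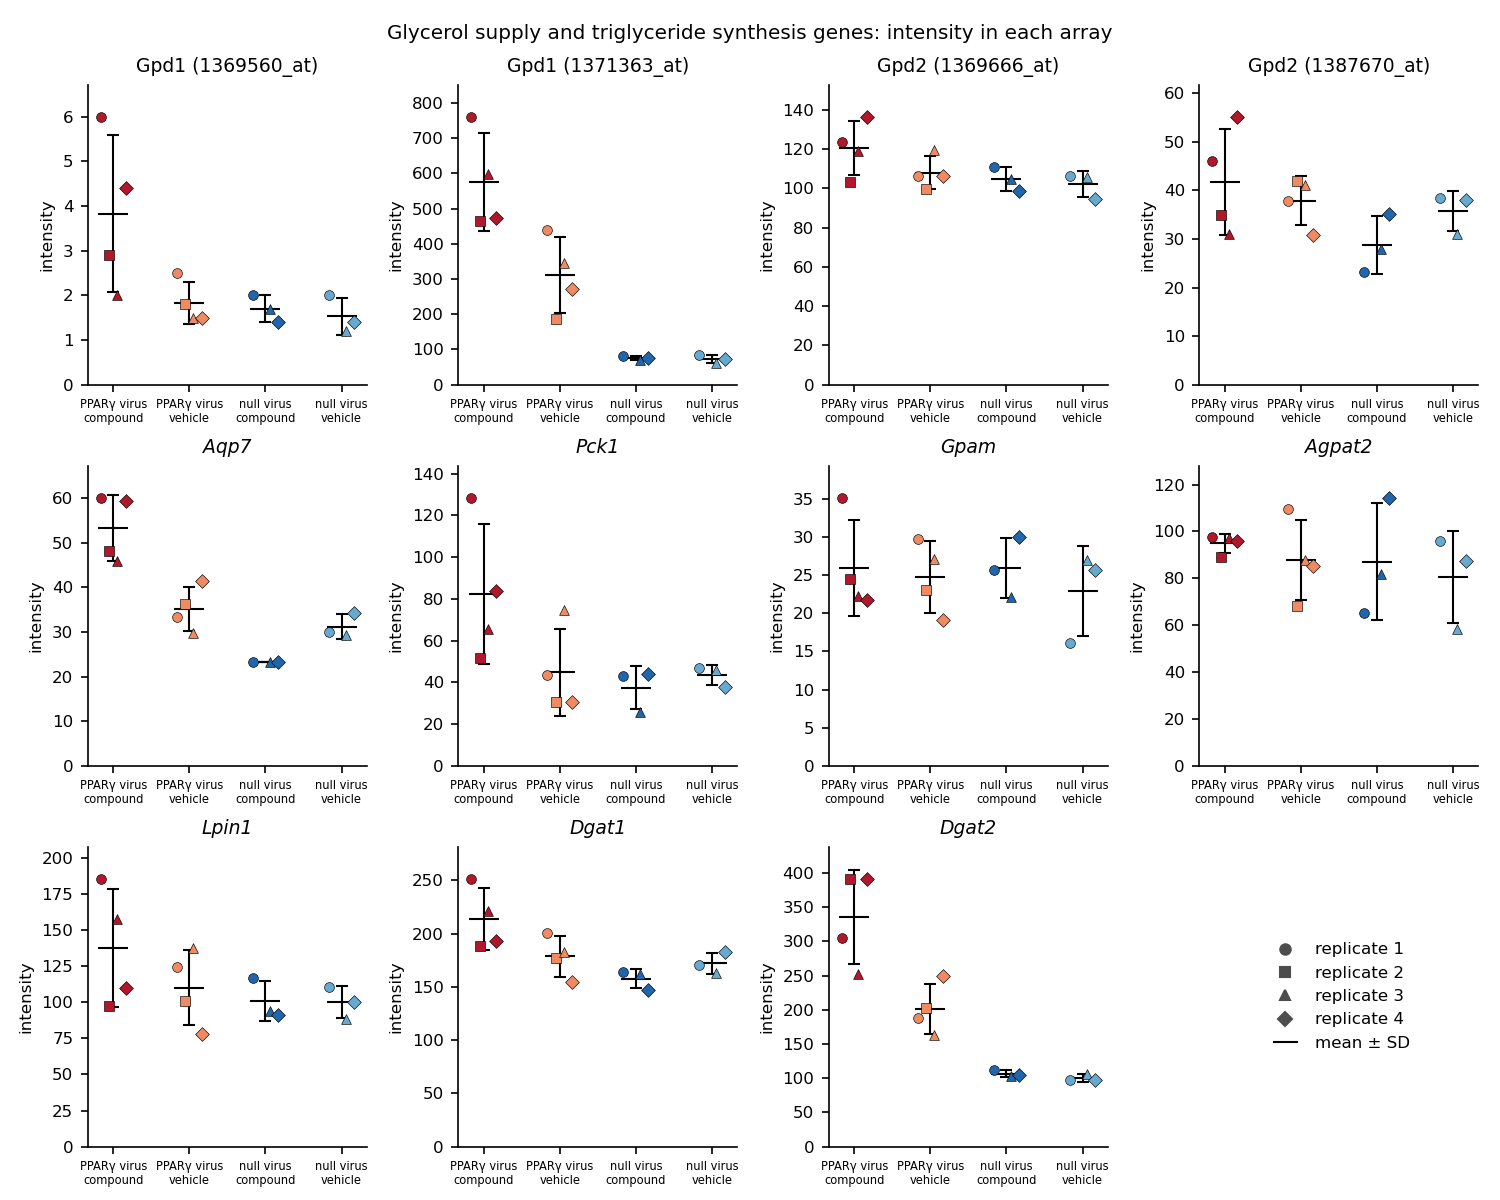
Intensity (linear axis from 0, scaled by the authors) of the 11 probe sets in each of 14 arrays, one panel per probe set, with the 4 virus and compound groups along the horizontal axis. Points are arrays, shaped by replicate number, and bars are the mean ± SD. Gpd1 (1371363_at) and Dgat2 stand higher in every PPARγ virus array than in every null virus array, while Agpat2 and Gpd2 (1369666_at) overlap across the groups.

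Gpd1 (probe set 1371363_at) read 761.4, 463.9, 599.3 and 474.6 intensity with PPARγ virus and compound, in replicates 1 to 4. It read 440.7, 187.9, 347.0 and 270.5 with PPARγ virus and vehicle. With the null virus it read 82.0, 69.6 and 77.0 with compound and 85.4, 62.7 and 71.6 with vehicle, in replicates 1, 3 and 4. No PPARγ virus array overlapped any null virus array: the lowest PPARγ virus array was at 187.9 and the highest null virus array at 85.4.

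The PPARγ virus alone raised Gpd1. With vehicle in both groups, the mean was 311.5 ± 107.9 with the PPARγ virus (SD, n = 4) and 73.2 ± 11.4 with the null virus (SD, n = 3). The log2 change was 1.97 ± 0.24 (SE), with a 95% interval of 1.45 to 2.48 (limma adjusted p = 0.00268). Gpd1 was the 1 member that rose in this contrast, in which 0.0397% of all probe sets rose. When the fit held only the groups compared, the same change had an adjusted p of 0.0721 and the call ended. With the replicate number as a block over all groups, 2 members rose there (Gpd1 and Dgat2), and 0.218% of all probe sets did.

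With compound in both groups, Gpd1 averaged 574.8 ± 138.8 with the PPARγ virus (SD, n = 4) and 76.2 ± 6.24 with the null virus (SD, n = 3). This was a log2 change of 2.82 ± 0.24 (SE, limma adjusted p = 2.09e-05). Against null virus and vehicle the change was 2.88, with a 95% interval of 2.37 to 3.39 (limma adjusted p = 1.29e-05). The exact two-sided permutation p for 4 arrays against 3 was 0.0571, the smallest that this design allows, so the limma values rest on the spread shared over probe sets.

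A second Gpd1 probe set, 1369560_at, read 1.2 to 6.0 in all arrays. That is below 39.3, the level that a probe set had to exceed in at least 4 arrays to be tested, so it has no place in the fit. It read 6.0, 2.9, 2.0 and 4.4 with PPARγ virus and compound and 1.2 to 2.5 over the other groups. In 4 of 4 PPARγ virus pairs its compound array read higher, by 0.11 to 0.58 on the log2 scale, at levels near the constant of 4.6 added before taking logs.

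Gpd2, which consumes the product of Gpd1, did not pass in any contrast. Its brighter probe set, 1369666_at, averaged 120.6 ± 13.7 with PPARγ virus and compound (SD, n = 4), 108.0 ± 8.34 with PPARγ virus and vehicle (SD, n = 4), 104.7 ± 6.25 with null virus and compound (SD, n = 3) and 102.2 ± 6.42 with null virus and vehicle (SD, n = 3). The combined log2 change was 0.22, with a 95% interval of -0.03 to 0.47 (limma adjusted p = 0.648). The dimmer probe set, 1387670_at, read 23.3 to 55.2 over all arrays, with a combined log2 difference of 0.17 (limma adjusted p = 0.904). It entered the test through 4 arrays above 39.3, all with the PPARγ virus, so its entry was tied to being high there. The log2 changes of Gpd1 (1371363_at) and Gpd2 (1369666_at) were set against each other within each array. In the combined contrast the change of Gpd1 exceeded that of Gpd2 by 2.65, and every array of PPARγ virus with compound lay above every array of null virus with vehicle (two-sided exact p by permutation 0.0571, the lowest 4 against 3 arrays can give; 0.0816 after adjusting over 10 such comparisons, chosen after the values were seen).

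Aqp7, the glycerol channel, was dim. It read 60.1, 48.2, 45.8 and 59.3 with PPARγ virus and compound and 33.4, 36.3, 29.7 and 41.4 with PPARγ virus and vehicle. With the null virus it read 23.3 in all 3 compound arrays and 30.0, 29.2 and 34.3 in the vehicle arrays. It was tested because 5 arrays exceeded 39.3, and all 5 carried the PPARγ virus, 4 of them with compound. A rise with the PPARγ virus therefore came with the entry into the test.

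With compound in both groups, the log2 change of Aqp7 was 1.05 ± 0.17 (SE, limma adjusted p = 0.00641). Aqp7 joined Gpd1 and Dgat2 as the 3 members that rose there, in a contrast where 0.635% of all probe sets rose. Without the 4 PPARγ virus arrays of replicates 2 and 4, an alternative chosen after seeing the data, the change was 1.03. Its limma adjusted p was 0.0535, so the call ended. Against null virus and vehicle the change was 0.69, with a 95% interval of 0.34 to 1.04 (limma adjusted p = 0.102). With vehicle in both groups it was 0.15 (limma adjusted p = 1.00). A block over all groups brought Aqp7 past the test in the combined contrast (adjusted p = 0.0480), which made 3 members there, against 1.27% of all probe sets.

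Pck1, the glyceroneogenic enzyme, had the largest standard error of the tested members (0.31 for the combined log2 change). It read 128.5, 51.6, 65.5 and 83.8 with PPARγ virus and compound and 43.4, 30.5, 74.6 and 30.3 with PPARγ virus and vehicle. The null virus arrays read 42.8, 25.6 and 43.9 with compound and 46.8, 45.8 and 37.9 with vehicle. The 4 arrays of PPARγ virus with compound stood above all 6 null virus arrays, but replicate 3 with vehicle (74.6) stood above replicate 3 with compound (65.5). The combined log2 change was 0.78, with a 95% interval of 0.11 to 1.45, and did not pass (limma adjusted p = 0.484).

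The promoter of Pck1 is a textbook case of a promoter that hormone receptors and cyclic AMP control, and is shown for that reason. RefSeq promoters were found for 5 of the 9 genes (Gpd2, Pck1, Gpam, Agpat2 and Lpin1) in the rat build GRCr8. The 250 bases before each start were searched on both strands for AGGTCA, the core element of nuclear receptors. They were also searched for AGGTCANAGGTCA, the direct repeat that PPARγ binds with its partner RXR, and for TTACGTCA, a form of the cyclic AMP response element. These patterns occurred in 14.1%, 0.0508% and 0.75% of 33469 rat promoters of the same length, and a match to the repeat also holds the core element. TTACGTCA is the form found in Pck1 and no other form was searched. The search therefore cannot show that the other promoters lack a cyclic AMP element. The match of this form in Pck1 was fixed beforehand and is no result. The repeat was searched only in its exact form and only within these 250 bases. Its absence there cannot show that any of the 5 genes lacks a site for PPARγ. Only Pck1 held any match among the 5, namely the core element with its first base at -144 and the cyclic AMP element at -93, both in capitals below, at chr3:182348322-182348571 on the plus strand.
Pck1 promoter: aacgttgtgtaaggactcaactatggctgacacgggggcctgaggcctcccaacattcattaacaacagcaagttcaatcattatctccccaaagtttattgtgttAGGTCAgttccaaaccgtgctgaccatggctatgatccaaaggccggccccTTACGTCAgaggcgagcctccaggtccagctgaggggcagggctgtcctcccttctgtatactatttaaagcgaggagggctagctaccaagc

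The steps between the backbone and diacylglycerol showed no change that passed. Gpam, which adds the first fatty acid, read 16.1 to 35.2 in all 14 arrays, below the level for testing. Agpat2 averaged 94.9 ± 3.94 with PPARγ virus and compound (SD, n = 4) and 80.5 ± 19.8 with null virus and vehicle (SD, n = 3), and its combined log2 change of 0.25 had a 95% interval of -0.18 to 0.68 (limma adjusted p = 0.826).

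Lpin1, the phosphatidate phosphatase, read 185.6, 97.6, 157.4 and 110.2 with PPARγ virus and compound and 124.6, 101.0, 137.3 and 78.0 with PPARγ virus and vehicle. It read 116.5, 94.3 and 91.1 with null virus and compound and 110.6, 88.5 and 100.5 with null virus and vehicle. Replicates 1 and 3 with PPARγ virus and compound exceeded all null virus arrays, and replicates 2 and 4 lay among them. The combined log2 change was 0.41, with a 95% interval of -0.06 to 0.88 (limma adjusted p = 0.674).

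Dgat2 and Dgat1 catalyse the same last step and share no sequence family. Dgat2 read 305.7, 391.3, 252.2 and 391.7 with PPARγ virus and compound and 188.0, 202.3, 163.0 and 249.6 with PPARγ virus and vehicle. It read 112.1, 103.0 and 104.4 with null virus and compound and 96.9, 106.5 and 96.9 with null virus and vehicle. The 4 groups stood in steps: every array with PPARγ virus and compound lay above every array with PPARγ virus and vehicle, and these lay above all 6 null virus arrays.

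With compound in both groups, Dgat2 averaged 335.2 ± 68.5 with the PPARγ virus (SD, n = 4) and 106.5 ± 4.90 with the null virus (SD, n = 3), a log2 change of 1.59 ± 0.16 (SE, limma adjusted p = 1.25e-04). Against null virus and vehicle, which averaged 100.1 ± 5.54 (SD, n = 3), the change was 1.68, with a 95% interval of 1.33 to 2.03 (limma adjusted p = 7.27e-05). With vehicle in both groups the change was 0.96, with a 95% interval of 0.61 to 1.31, and did not pass (limma adjusted p = 0.0731).

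Dgat1 read 251.7, 188.0, 221.3 and 193.4 with PPARγ virus and compound and 200.6, 177.2, 183.1 and 154.4 with PPARγ virus and vehicle. It read 164.5, 161.9 and 147.2 with null virus and compound and 170.7, 163.5 and 182.8 with null virus and vehicle. The arrays of PPARγ virus with compound stood above all 6 null virus arrays, by a small margin. The combined log2 change was 0.29, with a 95% interval of 0.03 to 0.56 (limma adjusted p = 0.530). Within arrays, the combined log2 change of Dgat2 exceeded that of Dgat1 by 1.38, with no overlap between the groups (two-sided exact p by permutation 0.0571, again the lowest; 0.0816 after adjusting over the same 10 comparisons).

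Groups whose arrays did not overlap were counted as well. In the combined contrast, 5 of the 9 tested probe sets lay higher in every array of PPARγ virus with compound (Gpd1, Aqp7, Pck1, Dgat1 and Dgat2), and 4.06% of all tested probe sets did so. With compound in both groups the same 5 genes lay higher without overlap, against 4.56% of all. With vehicle in both groups 2 did (Gpd1 and Dgat2), against 2.45% of all. As Aqp7 entered the test through its PPARγ virus arrays, its place in these counts is no support. The share of all probe sets with every array of PPARγ virus and compound above both null virus groups at once was not counted.

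**Figure D2:**
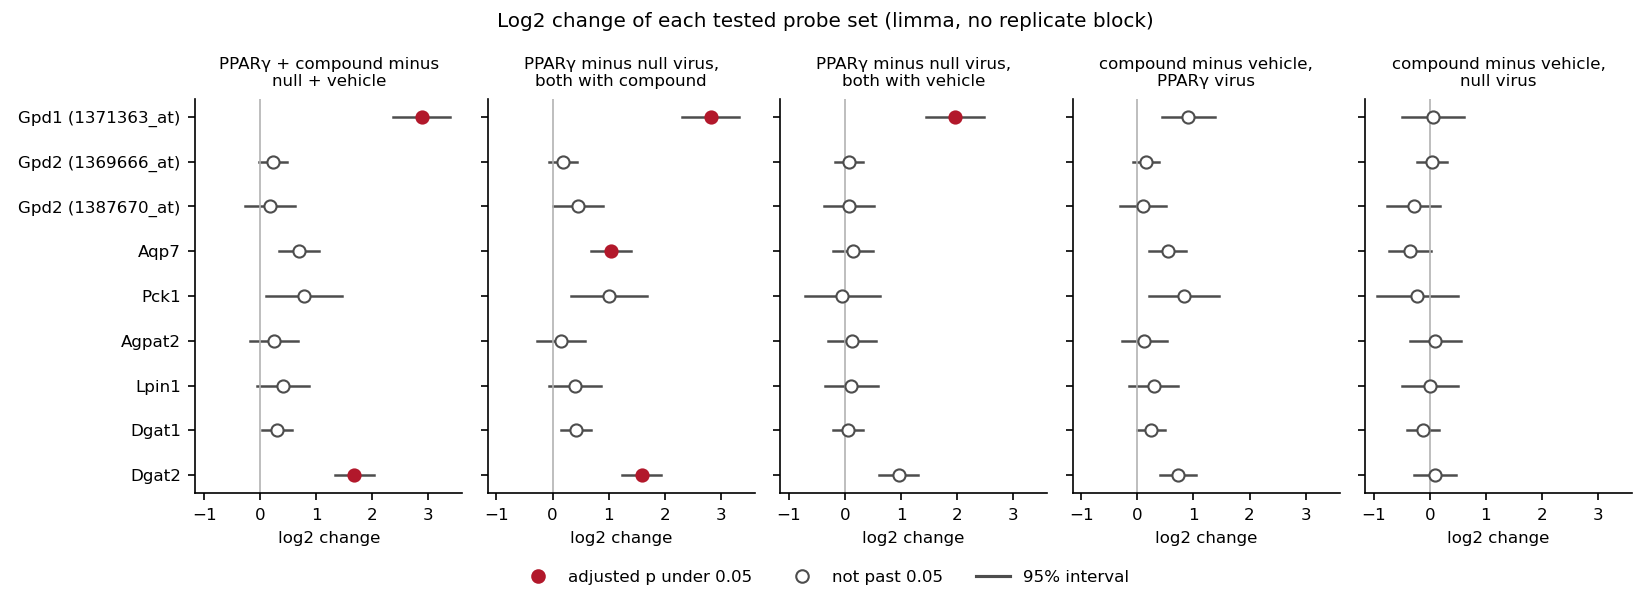
Log2 change (horizontal axis) of the 9 tested probe sets (vertical axis) in 5 contrasts, with 95% intervals from limma without a replicate block. Filled points passed an adjusted p of 0.05. Gpd1 (1371363_at) passed in all 3 contrasts of the viruses, Dgat2 in the combined contrast and with compound in both groups, and Aqp7 with compound in both groups.

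What the agonist added was read by comparing compound with vehicle under each virus. Under the PPARγ virus, the compound raised Gpd1 and Dgat2 when arrays of the same replicate number were paired. The pairs are a property of the data: within a virus, arrays of the same number deviated from their group means together (r of 0.445 to 0.702 over 10078 probe sets, in 7 of 7 pairs). With the replicate number as a block, 2 of the 9 probe sets rose, and 0.357% of all probe sets did. Without the block none of the 9 passed, while 0.0595% of all rose, and 4 of the 9 and 295 of 10078 had an unadjusted p under 0.05. These 4 included Aqp7, which entered the test only through PPARγ virus arrays, most of them with compound. Its place among them is no support. With a block over all groups 1 rose (Gpd1), and 0.139% of all did.

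In 4 of 4 pairs Gpd1 read higher in the compound array, by 0.78 to 1.28 on the log2 scale. The mean change was 0.91 ± 0.10 (SE) with the block (limma adjusted p = 0.00147), and the adjusted p was 0.5257 without it. Dgat2 was higher in 4 of 4 pairs, by 0.62 to 0.94, with a mean of 0.72 ± 0.09 (SE, limma adjusted p = 0.00289 with the block and 0.210 without). The share of all probe sets that were higher in every pair was not counted, for these or the other members. Beside these changes, the ratio of 3 prime to 5 prime signal of beta-actin, a sign of RNA quality, also stood higher in the compound array of 4 of 4 pairs, on average by 0.24 on the log2 scale, and in 3 of 3 null virus pairs, by 0.38. The same ratio of Gapdh stood higher in 3 of 4 PPARγ virus pairs, with a mean of -0.07, and in 1 of 3 null virus pairs, with a mean of 0.24. That mean rested on 1 pair, at 0.92. With null virus and compound the Gapdh ratio was 18.85 in replicate 3, against 9.871 and 9.046 in replicates 1 and 4. The part of RNA quality in these results was not tested.

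Aqp7 was higher with compound in 4 of 4 PPARγ virus pairs, by 0.37 to 0.77, and did not pass with the block (limma adjusted p = 0.225). Pck1 was higher in 3 of 4 pairs, between -0.18 and 1.47, with an adjusted p of 0.334 with the block. Dgat1 was higher in 4 of 4, by 0.08 to 0.32, and Lpin1 in 3 of 4, between -0.05 and 0.56 (limma adjusted p = 0.419 and 0.465 with the block). Without pairing, 3 probe sets (Gpd1, Aqp7 and Dgat2) lay higher in every compound array than in every vehicle array, and 0.645% of all did. Aqp7 entered the test through 4 compound arrays and 1 vehicle array of the PPARγ virus, so its place in this count is no support.

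Under the null virus none of the 9 tested probe sets passed, with or without the block, and 0.0% of all probe sets rose. At an unadjusted p under 0.05 the counts without the block were 0 of 9 members and 95 of 10078 probe sets, and with the block 1 of 9 and 411. The log2 difference was 0.06 for Gpd1, with a 95% interval of -0.49 to 0.61, and 0.09 for Dgat2, with an interval of -0.29 to 0.46. Both intervals hold changes in either direction. Aqp7 was lower in 3 of 3 pairs, by -0.48 to -0.28, and did not pass (limma adjusted p = 1.00). It was the 1 member whose compound arrays all lay below the vehicle arrays, as in 2.53% of all probe sets.

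**Figure D3:**
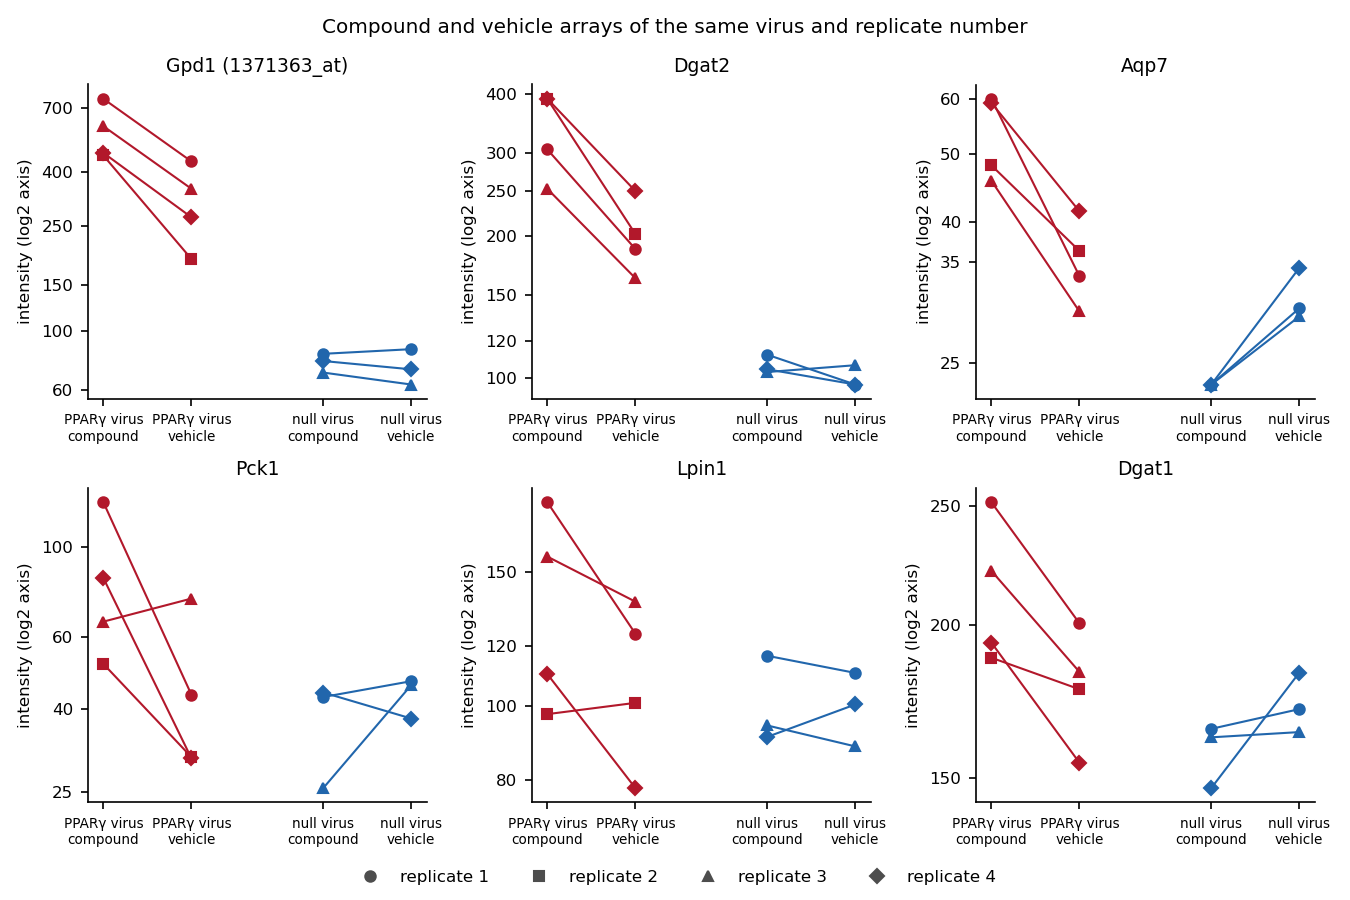
Intensity (log2 axis) of 6 genes in compound and vehicle arrays, with a line joining arrays of the same virus and replicate number. Gpd1 and Dgat2 slope upward towards compound in all 4 PPARγ virus pairs, and the 3 null virus pairs of Gpd1 stay between 62.7 and 85.4.

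Whether the compound did more under the PPARγ virus than under the null virus was tested as the interaction. No member passed (0 of 9, with 0.0% of all probe sets rising), while 4 of 9 and 143 of 10078 had an unadjusted p under 0.05. These 4 were Gpd1, Dgat2, Pck1 and Aqp7. As Aqp7 entered the test only through PPARγ virus arrays, most of them with compound, its place in this count is no support. The difference was 0.85 for Gpd1, with a 95% interval of 0.13 to 1.57 (limma adjusted p = 1.00, and 0.180 with the block, with which 0 of 9 members and 0.0496% of all probe sets rose). It was 0.63 for Dgat2, with an interval of 0.14 to 1.13 (1.00, and 0.377 with the block), and 1.05 for Pck1, with an interval of 0.10 to 2.00 (1.00, and 0.788 with the block). The larger size of the compound effect under the PPARγ virus is therefore a description that did not pass this test.

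The arrays low in glucagon were also the ones that differed in some of these genes. In both PPARγ virus groups, replicates 1 and 3 exceeded replicates 2 and 4 for Gpd1, Lpin1, Dgat1 and Agpat2, and lay below them for Dgat2. The share of all probe sets that split in this way was not counted. Arrays of the same number deviated together in both groups, so the groups do not show the split independently. An alternative without replicates 2 and 4 of the PPARγ virus was chosen after seeing the data. In it the combined change was 3.14 for Gpd1 (limma adjusted p = 8.63e-06) and 1.43 for Dgat2 (limma adjusted p = 4.47e-04), both past the test. It did not match the groups in other islet hormones. PPARγ virus replicate 3, which stayed in, read 1279.2 and 1253.7 for Sst, against 172.1 to 425.3 in the null virus arrays. Replicate 1, which also stayed in, read 512.2 with compound and 293.8 with vehicle. The summed level of the non-beta islet markers (5 of 5 on the array) was 495.4 to 9406 with PPARγ virus and compound, 1013 to 10260 with PPARγ virus and vehicle, 5461 to 7516 with null virus and compound and 4630 to 9288 with null virus and vehicle. The part of these cells in the results was not tested.

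**Figure D4:**
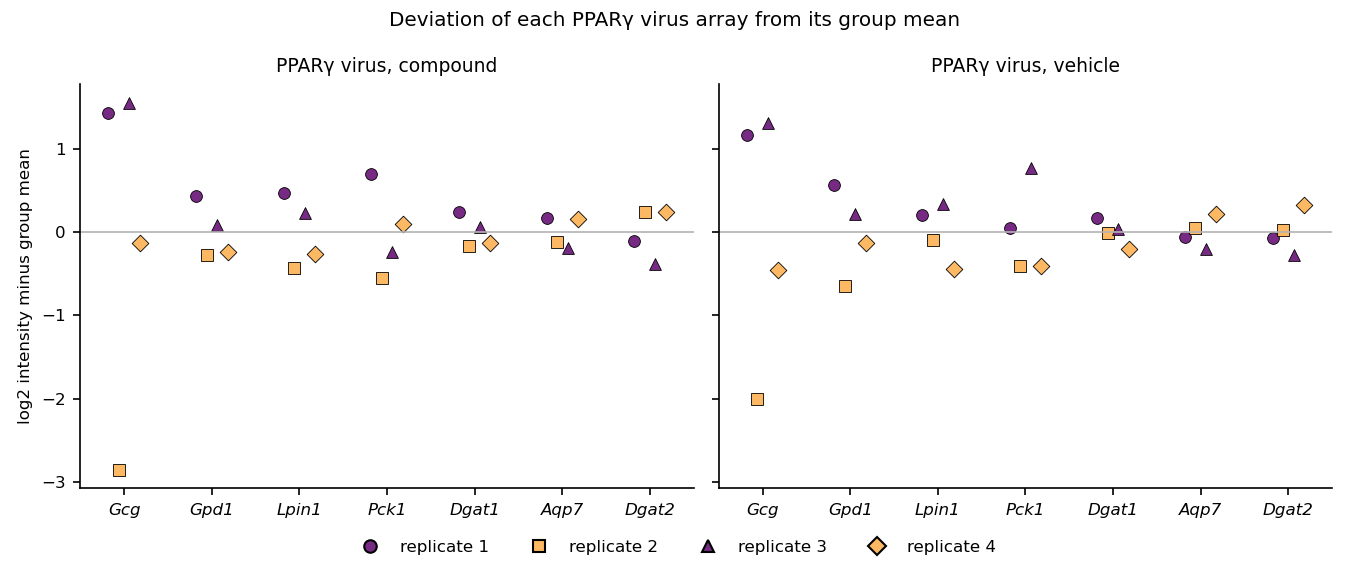
Log2 intensity minus the group mean (vertical axis) of each PPARγ virus array, for the glucagon gene Gcg and 6 of the genes, with compound on the left and vehicle on the right. Points are arrays, shaped by replicate number. Replicate 2 is the lowest for Gcg in both panels, and replicates 2 and 4 lie below replicates 1 and 3 for Gpd1 and above them for Dgat2.

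Adipocytes express these genes strongly, so their markers were read as well. Of 7 markers, 4 were on the array (Lep, Plin1, Cfd and Lipe) and 0 reached the level for testing. Their summed intensity was 52.6 to 91.1 with PPARγ virus and compound, 41.3 to 53.8 with PPARγ virus and vehicle, 38.5 to 53.7 with null virus and compound and 41.7 to 47.1 with null virus and vehicle. The fat cell hormone Lep read 0.9 to 3.7 in all arrays, and Plin1 9.8 to 20.4. Cfd read 25.8 to 38.1 with PPARγ virus and compound and 18.0 to 28.3 with PPARγ virus and vehicle, against a highest value of 24.6 over all 6 null virus arrays, so the PPARγ virus arrays with compound did not overlap them. Cfd was too dim to be tested, and the share of all probe sets that stood apart in this way was not counted. Lipe read 7.3 to 39.1 with PPARγ virus and compound, 5.6 to 11.2 with PPARγ virus and vehicle, 5.7 to 13.0 with null virus and compound and 7.4 to 8.5 with null virus and vehicle. The part of adipocytes in the results was not tested. Of the marker lists read, the duct list (4 of 7 on the array) was the only one with calls, 2 over the 6 contrasts. Its keratin Krt19 rose in the combined contrast by 1.30 (limma adjusted p = 0.0391). The other tested duct markers did not pass: Krt18 stood at 0.38, Krt7 at 0.13 and Spp1 at -0.52 (limma adjusted p = 0.3185, 0.857 and 0.871). The list's summed level was 2951 to 3428 with PPARγ virus and compound, 2938 to 3548 with PPARγ virus and vehicle, 2496 to 3249 with null virus and compound and 2407 to 3569 with null virus and vehicle. The part of duct cells in the results was not tested.

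The remaining enzymes of the same chemistry gave no call in any of the 6 contrasts. Of 22 other genes of glycerol supply and triglyceride synthesis, 12 were tested, and their median combined change was 0.08. The median was -0.14 over 11 genes that divert phosphatidate and diacylglycerol to phospholipid, and 0.04 over 11 genes of triose phosphate supply and the NADH shuttles. It was 0.55 over the 8 member genes tested and -0.03 over all 10078 probe sets. As members and lists were chosen with earlier results of these data known, the higher median of the members is a description and no support.

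By the smallest p in each list, the named genes were these, and none passed. The lysophosphatidate acyltransferases Agpat5 and Agpat4 stood at -0.19 and 0.26 (limma adjusted p = 0.793 and 0.835). The phospholipid synthesis genes Cept1 and Pcyt2 stood at 0.17 and -0.15 (0.706 and 0.794). The aspartate-glutamate carrier Slc25a12, part of the malate-aspartate shuttle, stood at -0.44 (0.323), and the citrate carrier Slc25a1 at -0.43 (0.639).

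**Figure D5:**
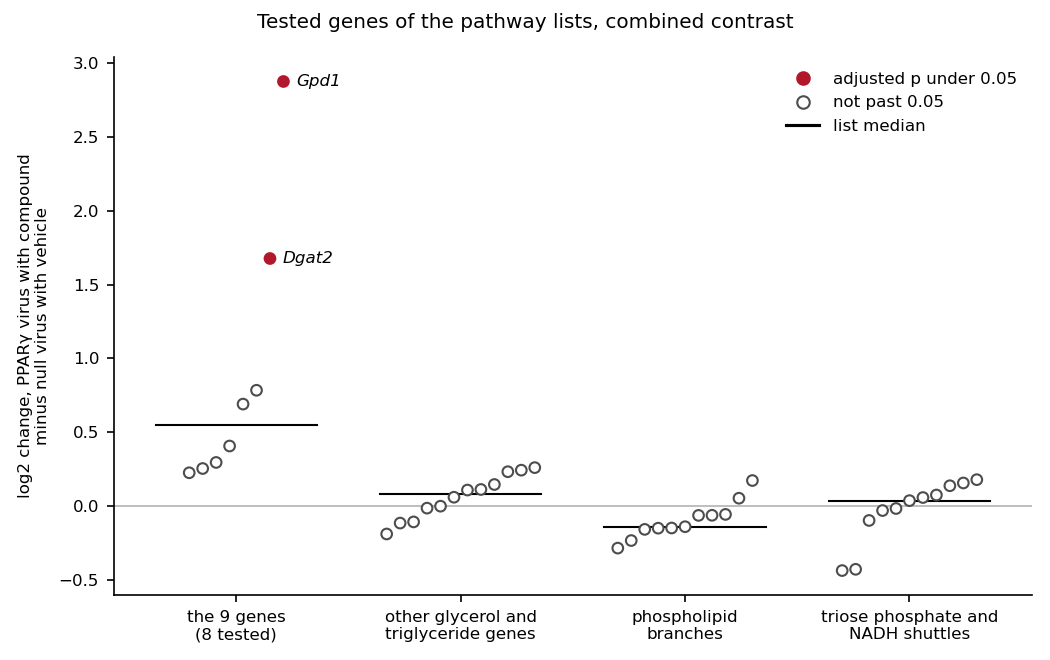
Log2 change in the combined contrast (vertical axis) of each tested gene in 4 lists (horizontal axis), with each list's median as a line. Filled points passed an adjusted p of 0.05. Gpd1 and Dgat2 are the 2 filled points, and no gene of the other 3 lists is filled.

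The genes whose levels followed Gpd1 most closely over the 14 arrays were Plek (pleckstrin, Pearson r = 0.99), Fga (fibrinogen alpha chain, 0.97) and Ang (angiogenin, 0.96). For Dgat2 they were G0s2, an inhibitor of the lipase that starts triglyceride breakdown (0.97), the lipid droplet coat gene Plin2 (0.97) and Cluh (0.95). Plin2 averaged 1345 intensity with PPARγ virus and compound, 883.9 with PPARγ virus and vehicle, 509.0 with null virus and compound and 446.7 with null virus and vehicle. These correlations describe 14 arrays that fall into 4 groups, so much of each comes from the group means.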

How the data were processed

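The authors' table held 1 intensity for each of 15923 probe sets of a rat array in 16 columns, 4 per group by their labels, as deposited. The deposited intensity values were on a linear scale and already scaled to 1 level, since every column had a mean of 150.0 once 2% of its values were trimmed from either end. The probe summary software is not given in the sources used here, and no further scaling was applied. The null virus replicate 2 columns, vehicle and compound, were identical in all 15923 probe sets (other pairs in at most 0.936%) and were left out, leaving 14 arrays. Depth does not apply to arrays, and their number limits the precision.

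Values were taken as log2(value + 4.6), which understates changes of dim genes. A probe set was tested if above 39.3, the 40th percentile, in at least 4 arrays (10078; 57 control probe sets left out). A mean per group was estimated in R 4.3.3 by limma 3.58.1, with empirical Bayes moderation that followed intensity, and p-values were Benjamini-Hochberg adjusted over all tested probe sets per contrast, at 0.05; the code was tested on simulated data. Exact permutation tests used scipy 1.17.1. Symbols came from the platform annotation, updated through RefSeq (GRCr8), which also gave the promoters.

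Same-numbered vehicle and compound arrays of a virus deviated together in the data (r of 0.445 to 0.702), so the number was a block within a virus. Across viruses r was -0.12 to 0.433, and the numbers were taken as shared only in the alternative with a block over all groups. Calls from that alternative rest on a sharing that these r values bore out in part at best. The labels do not say what a number shares.

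All members were named. Of each list without a call, the 2 genes with the smallest combined p were named, and for each member called in the combined contrast, the 3 genes with the highest r. Members and lists were chosen with earlier results of these data known. Alternatives varied the pseudocount, filter, normalization, trend, columns, block, groups fitted and arrays left out.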

Additional observations from a re-analysis of the deposited data

Results flagged for a closer look

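The array deposited under both null virus labels was used in no comparison, and its values for these genes were read beside the others. Dgat2 read 135.1 on it, above the highest null virus vehicle array (106.5) and above all 6 null virus arrays used, whose highest was 112.1. Gpd2 read 107.7 on its brighter probe set, 1369666_at, against 106.2 on the highest null virus vehicle array, and 44.7 on its dimmer one, 1387670_at, against 38.4.

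For 2 of the genes, compound and vehicle arrays of the same number differed in opposite directions under the viruses, in every pair, and neither passed a test of the compound effect. The share of all probe sets that differed in this way was not counted, so the pattern is a description. Aqp7 entered the test only through PPARγ virus arrays, most of them with compound, so its direction there is no support. Its null virus arrays read 23.3 to 34.3, below the level for testing. Aqp7 was higher with compound in 4 of 4 PPARγ virus pairs and lower in 3 of 3 null virus pairs. The difference between these effects was 0.897 on the log2 scale, and did not pass as an interaction (limma adjusted p = 1.00, and 0.402 with the replicate block). Dgat1 was likewise higher in 4 of 4 and lower in 3 of 3 pairs, with a difference of 0.3702 (limma adjusted p = 1.00, and 0.787 with the block). Among 22 groups of 4 arrays examined, 0 held an array far from the others, where chance alone gives about 1 in 20. Only the PPARγ virus groups hold 4 arrays, so the null virus groups of 3 arrays were not examined in this way.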

How the results depend on the processing

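The rises of Gpd1 (1371363_at) and Dgat2 with compound in both groups and in the combined contrast passed under every alternative run. The number of members that rose with vehicle in both groups was 0 when only the groups compared were fitted (Gpd1 adjusted p = 0.0721), 2 with the replicate block over all groups (Dgat2 adjusted p = 0.0236), and 1 to 2 when each array was left out in turn. It was 2 without PPARγ virus vehicle replicate 3 (Dgat2 adjusted p = 0.0384), PPARγ virus compound replicate 2 (0.0493) or PPARγ virus compound replicate 3 (0.0317). Under the PPARγ virus, the number that rose with compound was 1 with the block over all groups (Gpd1, adjusted p = 0.0195) and 2 with the replicate block within each virus. The block over all groups gave 3 in the combined contrast, and the block changed no other count. In the other contrasts leaving out an array gave the counts 3, 2 and 0 in every case. Aqp7 passed in the combined contrast without the intensity trend (adjusted p = 0.0226), with all 16 columns (0.0314), with the identical array as null virus vehicle (0.0349) and with the block over all groups (0.0480).

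Signs turned only for changes that did not pass. For Pck1 with vehicle in both groups the change was 0.0917 with all 16 columns or the identical array as vehicle, 0.11 with the block over all groups and 0.36 without PPARγ virus replicates 2 and 4, an alternative chosen after seeing the data. For Gpd2 (1387670_at) there it was -0.0039 with all 16 columns or the identical array as vehicle. With that array as vehicle, the compound effect under the null virus was -0.0184 for Dgat2 and -0.0165 for Lpin1. Without PPARγ virus replicates 2 and 4, the compound effect under the PPARγ virus was -0.0125 for Agpat2 and -0.0526 for Gpd2 (1387670_at), and the interaction of Agpat2 was -0.11. It was -0.0159 with the identical array as null virus compound. The cause was not tested.

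Leaving out single arrays turned further signs. With vehicle in both groups the ranges were -0.0085 to 0.11 for Dgat1, -0.302 to 0.0925 for Pck1, -0.00011 to 0.26 for Lpin1, -0.0765 to 0.263 for Agpat2, -0.0183 to 0.154 for Gpd2 (1387670_at) and -0.0892 to 0.216 for Gpam. With compound in both groups they were -0.0281 to 0.358 for Agpat2 and -0.148 to 0.081 for Gpam. Under the null virus they were -0.0178 to 0.075 for Gpd2 (1369666_at), -0.0384 to 0.171 for Gpd1, -0.341 to 0.00055 for Pck1, -0.0973 to 0.0813 for Lpin1, -0.104 to 0.282 for Agpat2 and -0.0273 to 0.278 for Gpam. For Gpam they were -0.0859 to 0.129 for compound under the PPARγ virus and -0.0405 to 0.265 combined. For the interaction of Agpat2 the range was -0.16 to 0.23.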
